A study of Homo sapiens with 4 samples.

Results

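The genes described here are 10 genes of the immediate early response: EGR1, EGR2 and EGR3, NR4A1, NR4A2 and NR4A3, IER2, IER3 and IER5, and SRF. They were taken by their gene name in the array files among the gene probes, and each of the 10 genes had 1 probe of the 14297 on the array. Levels of 7 of them were high enough to be tested, of 8852 probes tested in all. K562, a human erythroleukemia cell line, was treated with AC-1041, a thalidomide analog, for 4 h. The sample labels call the control cells untreated, whereas the methods of the study name a DMSO vehicle. The labels give neither a dose nor a genotype beyond the cell line. For its gene expression work the methods state AC-1041 at 10 μM. The results of the study instead name an IC50 concentration, and the one they give for leukemia cells is lower. Each of 4 two-colour Agilent arrays received RNA of both treated and control cells, with the treated RNA in Cy5 on arrays 1 and 2 and in Cy3 on arrays 3 and 4.

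Immediate early genes are transcribed within minutes of a stimulus without the need for new protein synthesis. Growth factors, calcium, cAMP and several kinds of stress reach their promoters through factors already present in the cell, among them SRF, which binds the CArG box of the serum response element together with ETS partners such as ELK1, and CREB, which binds the cAMP response element. EGR proteins are zinc finger transcription factors, NR4A proteins are orphan nuclear receptors that act without a known physiological ligand, and the IER genes encode small proteins named only for their rapid induction.

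The promoters of the group differ in these elements, and 3 of them are shown because they contrast a gene that rose and holds CArG boxes (EGR1), a gene that rose and holds none in the same window (IER2), and the gene of the CArG-binding factor itself, which holds CArG boxes and was not past the threshold (SRF). RefSeq promoter sequences (GRCh38.p14) were found for 7 of the 10 genes with 11 start sites, and the 250 bases before each start were searched on both strands. EGR1 is on the plus strand at chr5:138465229-138465478, IER2 on the plus strand at chr19:13150161-13150410 and the first start of SRF on the plus strand at chr6:43171019-43171268. Capitals mark CArG boxes and core sequences of the cAMP response element (TGACG, or CGTCA on the other strand).
EGR1: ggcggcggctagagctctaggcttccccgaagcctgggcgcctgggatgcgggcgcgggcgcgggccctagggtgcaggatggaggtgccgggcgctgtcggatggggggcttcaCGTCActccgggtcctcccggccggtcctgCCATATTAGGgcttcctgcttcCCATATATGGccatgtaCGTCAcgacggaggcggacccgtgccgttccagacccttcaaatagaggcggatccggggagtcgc
IER2: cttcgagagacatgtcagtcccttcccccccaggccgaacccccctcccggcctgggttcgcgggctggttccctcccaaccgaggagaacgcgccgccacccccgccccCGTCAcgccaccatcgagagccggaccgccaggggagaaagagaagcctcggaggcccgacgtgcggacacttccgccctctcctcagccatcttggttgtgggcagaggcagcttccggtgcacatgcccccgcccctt
SRF: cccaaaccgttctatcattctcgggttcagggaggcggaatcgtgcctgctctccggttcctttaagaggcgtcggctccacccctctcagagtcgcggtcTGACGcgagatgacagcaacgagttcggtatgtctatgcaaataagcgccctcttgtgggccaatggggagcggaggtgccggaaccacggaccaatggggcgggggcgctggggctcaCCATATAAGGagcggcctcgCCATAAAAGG
The CArG boxes of EGR1 lie at bases 105 to 96 and 83 to 74 before the start, and its core sequences at bases 135 to 131 and 66 to 62. In SRF the CArG boxes lie at bases 30 to 21 and 10 to 1. A CArG box was also found 71 to 62 bases before the third start of EGR2, between core sequences on either side. Among all 35116 promoters of the table, 1.16% held a CArG box and 21.2% a core sequence. NR4A3 held 4 core sequences, but none of the 11 promoters held the full element TGACGTCA (1.65% of all promoters), which contains the core sequence. The ETS core CCGGAA, present in 14.5% of all promoters, was found in the first start of NR4A1, in IER2, in IER5 and in the first start of SRF. Neither the EGR site GCGTGGGCG (0.72% of all), nor the NR4A response element AAAGGTCA (1.05%), nor the TATA box letters TATAAA (10.7%) was found in these windows. Only these exact letters were searched for these 3 elements, so variants of them would have been missed. Such matches describe the letters in the window and are not evidence of binding. The 3 promoters shown were picked with the calls known, and whether such elements relate to the changes was not tested.

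Some properties of the arrays bear on every value. Between 5941 and 9515 of the gene probes were well above background in a channel, with the fewest on arrays 1 and 2, whose negative control spots had an SD of 226 to 308 against 27.8 to 40.5 on arrays 3 and 4. Across probes, the correlation of the log2 ratios was 0.94 within the Cy3 orientation of treated RNA and 0.81 within the Cy5 one, but from -0.29 to -0.12 across orientations. Dye orientation and array quality therefore cannot be told apart. Each gene was fitted in limma with a treatment and a dye term, so that standard errors rest on arrays of the same orientation, whereas SDs are over the arrays as measured. Of 9 erythroid markers of K562 cells, 8 were well above background in control cells on every array, and of 16 markers of other cell types 5 were. By limma 4 erythroid markers were lower (GATA1, KLF1, LMO2 and TAL1) and 1 was higher (EPOR), all 9 being tested. Of the 8 tested markers of other cell types 4 were lower and 0 higher. Among all tested probes 13% were lower and 24.3% higher at the same limma adjusted p under 0.05. TAL1 was above 0 on array 2, at 0.10. The summed log2 intensity of the 16 markers ran from 15.98 to 16.09 in treated and from 16.08 to 16.47 in control cells, and the collagen genes COL1A1, COL1A2 and COL3A1 were not well above background in any channel. The labels name K562 as the only cell line. The part of these markers in the results below was not tested. In bulk RNA, fewer cells that express a marker and less of its RNA per cell cannot be told apart.

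After 4 h of AC-1041, EGR1, NR4A1, NR4A2 and IER2 had a higher level in treated than in control K562 cells. At a limma adjusted p under 0.05, 4 of the 7 tested genes were called, where 37.3% of all tested probes were. These 4 genes were higher, as were 24.3% of all tested probes, and 0 were lower, against 13% of all tested probes. At an unadjusted p under 0.05 the limma counts were also 4 higher and 0 lower. IER3, IER5 and SRF did not pass the threshold, and EGR2, EGR3 and NR4A3 were too dim to be tested. Over the 7 genes the log2 ratio had a median of 0.67, against 0.02 over all tested probes. The study named NR4A1 and NR4A2 from these same arrays, so their direction is not independent evidence. All 4 genes that rose were above 0 on every array with an unmarked spot, and 16.7% of the 7991 tested probes unmarked on all arrays were above 0 on all 4.

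**Figure D1:**
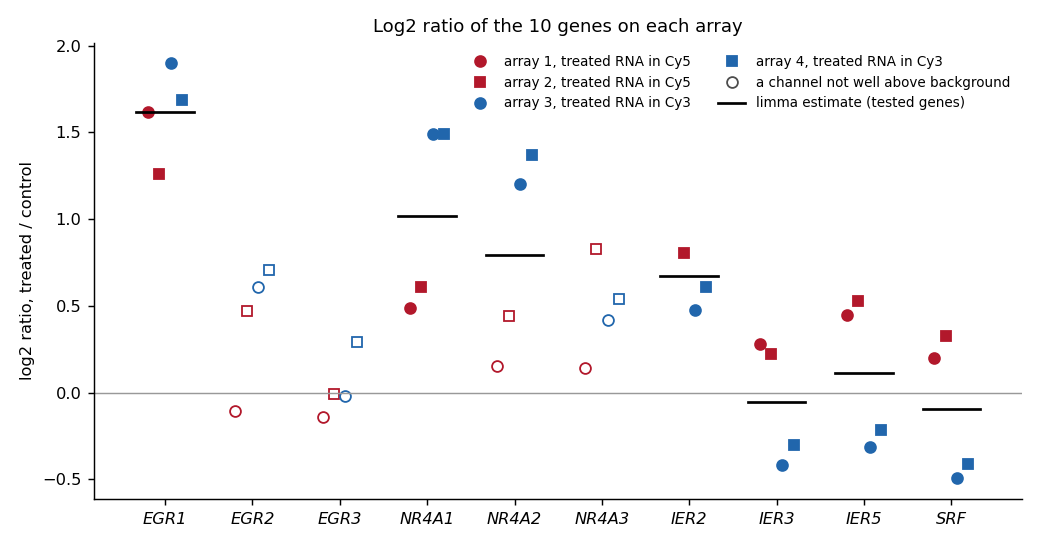
Log2 ratio of treated to control cells (vertical axis) of the 10 genes on each array, coloured by dye orientation, with open symbols where a channel was not well above background and a bar at the limma estimate of the 7 tested genes. EGR1 lies between 1.26 and 1.90 on all arrays, whereas IER3, IER5 and SRF lie above 0 on arrays 1 and 2 and below 0 on arrays 3 and 4.

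EGR1, which relays growth factor and stress signals to its target genes, had the largest change of the group. The EGR1 probe maps to bases 137832790 to 137832849 of chromosome 5 (hg18). The normalized log2 intensity was 12.82, 13.22, 13.35 and 13.36 in the control cells of arrays 1 to 4, and 14.43, 14.49, 15.24 and 15.05 in the treated cells. Every treated channel was thus brighter than every control channel, which held for 6.82% of the 7991 tested probes that were unmarked on all 4 arrays, and within the group for EGR1 and NR4A1. The log2 ratios of EGR1 were 1.62, 1.26, 1.90 and 1.68 on arrays 1 to 4. All arrays showed a rise, lowest on array 2, and both orientations gave a value well above 0, with means of 1.44 for Cy5 and 1.79 for Cy3. The log2 ratio was 1.61 ± 0.26 (SD, n = 4 arrays) with a standard error of 0.081, a 3.06-fold higher level (limma adjusted p = 8.1e-06). EGR1 ranked 22 among the log2 ratios of the 8852 tested probes. Its dye term was not past the threshold (limma adjusted p = 0.093), and its call was kept in all 16 other settings, with log2 ratios from 1.53 to 1.70.

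The other members of the EGR family were dim. EGR2, known for its part in myelination and in lymphoid and myeloid cells, has its probe at bases 64241856 to 64241915 of chromosome 10 (hg18). Before background correction, the mean signals of EGR2 on arrays 1 to 4 were 255, 177, 311 and 329 in treated cells and 305, 132, 198 and 214 in control cells. These signals are close to those of the negative control spots, which averaged from 117 to 364 over the channels, and EGR2 was well above background only in the treated channel of array 4. The log2 ratios of EGR2 were -0.11, 0.47, 0.61 and 0.70. It was below 0 on array 1 alone, and since no array measured it in control cells, no fold is given. Without the filter on dim probes its log2 ratio was 0.42 (limma adjusted p = 0.010). EGR3, a close relative of EGR1, was not well above background in either channel of any array (probe on chromosome 8 of hg18, 22601909 to 22601968). Its log2 ratios were -0.14, -0.01, -0.02 and 0.29, so the arrays had no common direction, and without the filter its limma adjusted p was 0.836.

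NR4A1, the orphan receptor also known as NUR77, has its probe at bases 50739445 to 50739504 of chromosome 12 (hg18). Its normalized log2 intensity was 11.70, 11.42, 11.48 and 11.28 in control cells and 12.19, 12.03, 12.97 and 12.77 in treated cells of arrays 1 to 4. The groups did not overlap, and the control channels were more alike than the treated ones. The log2 ratios of NR4A1 were 0.49, 0.61, 1.49 and 1.49. Arrays with the treated RNA in Cy3 gave the higher values, with a mean of 1.49 against 0.55 in Cy5, and its dye term passed the threshold (limma adjusted p = 0.00050). The log2 ratio was 1.02 ± 0.55 (SD, n = 4 arrays) with a standard error of 0.065, a 2.03-fold higher level (limma adjusted p = 2.2e-05).

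NR4A2, also known as NURR1 and needed for midbrain dopamine neurons, showed a like split at a lower intensity. The NR4A2 probe maps to bases 156889973 to 156890032 of chromosome 2 (hg18). The normalized log2 intensity was 8.56, 9.01, 8.82 and 8.80 in control cells and 8.71, 9.45, 10.02 and 10.16 in treated cells. The treated channel of array 1 lay within the range of the control channels, so here the groups overlapped. NR4A2 was well above background in the treated channel of 3 arrays and in the control channel of 2, arrays 3 and 4. The log2 ratios were 0.15, 0.44, 1.20 and 1.37. All were above 0, but the arrays that measured both channels gave the highest values, and the dye term of NR4A2 passed it too (limma adjusted p = 0.00080). The log2 ratio was 0.79 ± 0.59 (SD, n = 4 arrays) with a standard error of 0.075, a 1.73-fold higher level (limma adjusted p = 0.00015).

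NR4A3, the remaining receptor of the family (NOR1), has its probe at bases 101668806 to 101668865 of chromosome 9 (hg18). It was well above background only in the treated channel of array 4, so no fold is given. Its mean signals on arrays 1 to 4 were 761, 295, 264 and 307 in treated cells and 734, 163, 180 and 215 in control cells. Treated cells had the brighter signal on each array, by the least on array 1. The log2 ratios were 0.14, 0.83, 0.42 and 0.54, and without the filter on dim probes the value was 0.48 (limma adjusted p = 0.0085).

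**Figure D2:**
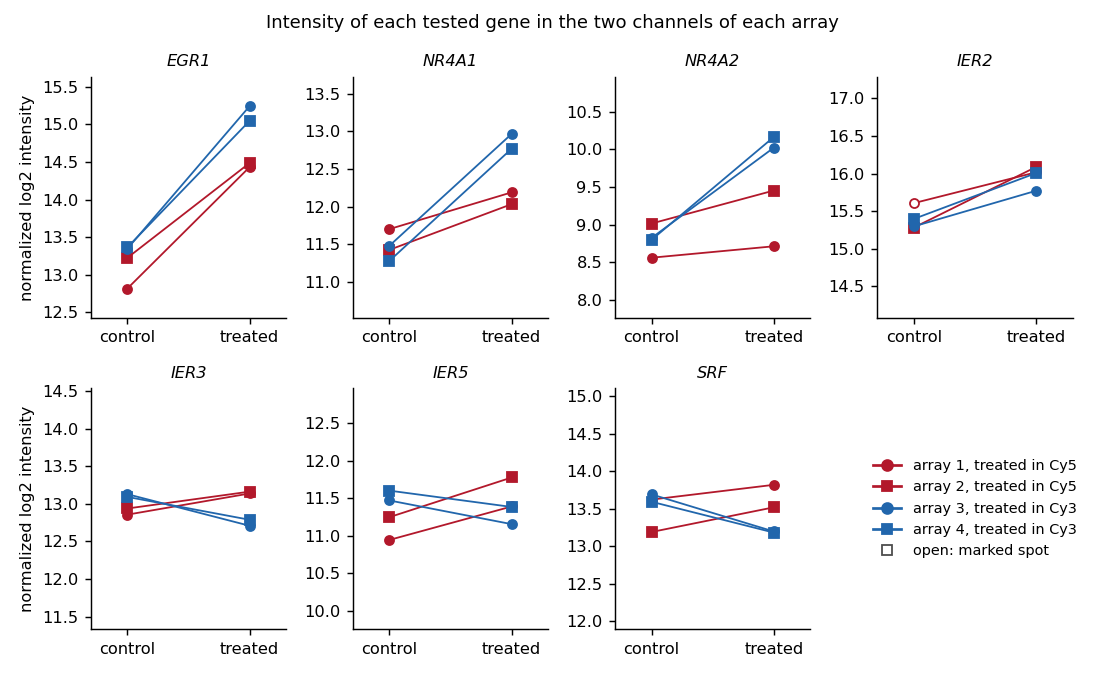
Normalized log2 intensity (vertical axes, each spanning the same range) of the 7 tested genes in the control and treated channel of each array, with a line joining the channels of 1 array and an open symbol for a marked spot. The lines of EGR1, NR4A1, NR4A2 and IER2 all rise, whereas those of IER3, IER5 and SRF rise with the treated RNA in Cy5 and fall with it in Cy3.

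Of the IER genes only IER2 passed the test. IER2 encodes a nuclear protein induced by growth factors, and its probe maps to bases 13126586 to 13126645 of chromosome 19 (hg18). On array 1 its spot was marked as an outlier and was left out of the fit. On arrays 2, 3 and 4 the normalized log2 intensity was 15.28, 15.30 and 15.40 in control cells and 16.09, 15.77 and 16.00 in treated cells. On each of these arrays the treated channel was the brighter, at some of the highest intensities of the group. The log2 ratios were 0.81, 0.47 and 0.61, with a mean of 0.63 ± 0.17 (SD, n = 3 arrays), and the fit with the dye term gave 0.67 with a standard error of 0.085, a 1.60-fold higher level (limma adjusted p = 0.00090). Before normalization the mean signals on arrays 2 to 4 were 92341, 42807 and 45212 in treated cells and 30042, 43665 and 51211 in control cells. On arrays 3 and 4 the rise of IER2 was thus seen only after the channels had been normalized to each other. With the marked spot kept, the log2 ratio was 0.52 (limma adjusted p = 0.0136).

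IER3, IER5 and SRF were well above background in both channels of all 4 arrays, and none passed the threshold. IER3 (IEX-1), which modulates apoptosis and ERK signalling, has its probe at bases 30819291 to 30819350 of chromosome 6 (hg18). Its log2 ratios were 0.28, 0.22, -0.42 and -0.30, or -0.05 ± 0.36 (SD, n = 4 arrays; limma adjusted p = 0.545). IER5, a nuclear protein linked to the heat shock factor HSF1, has its probe at bases 179325367 to 179325426 of chromosome 1. Its log2 ratios were 0.44, 0.53, -0.32 and -0.22, or 0.11 ± 0.44 (SD, n = 4 arrays; limma adjusted p = 0.219). SRF, the serum response factor, has its probe at bases 43256969 to 43257028 of chromosome 6, and its log2 ratios were 0.20, 0.33, -0.49 and -0.41, or -0.09 ± 0.42 (SD, n = 4 arrays; limma adjusted p = 0.295). Each of these 3 genes was above 0 with the treated RNA in Cy5 and below 0 with it in Cy3, as were 21.3% of the 7991 tested probes unmarked on all arrays, while 24.4% had the opposite pattern. Their dye terms were past the threshold, with limma adjusted p-values from 0.0016 to 0.0041, as they were for 5 of the 7 genes and for 58.2% of all tested probes. With median centring in place of loess, IER5 had a log2 ratio of 0.24 (limma adjusted p = 0.0398) and IER3 one of 0.04 (limma adjusted p = 0.734).

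**Figure D3:**
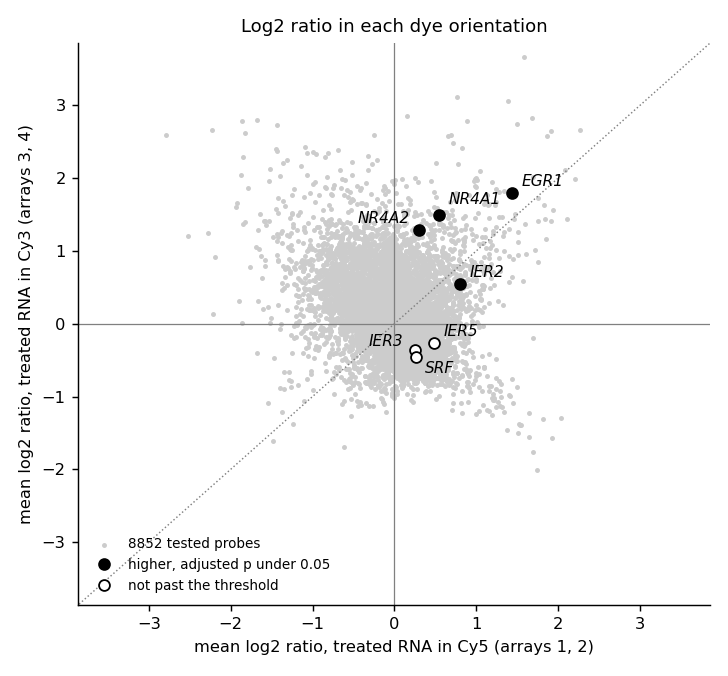
Mean log2 ratio of treated to control cells with the treated RNA in Cy5 (horizontal axis) and in Cy3 (vertical axis) for the 8852 tested probes in gray and the 7 tested genes as large points, with IER2 in Cy5 from array 2 alone. EGR1, at 1.44 and 1.79, lies close to the dotted line of equal ratios, while IER3, IER5 and SRF lie in the lower right quadrant.

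Ordered by log2 ratio, the tested genes ran from EGR1 over NR4A1, NR4A2, IER2, IER5 and IER3 to SRF. EGR1 was above NR4A1 on all 4 arrays, by 0.60 ± 0.40 on the log2 scale (SD, n = 4), with differences from 0.19 to 1.13. NR4A1 was above NR4A2 on all 4 arrays, by 0.23 ± 0.10. NR4A2 and IER2 did not differ beyond their spread, since the difference was 0.37 ± 0.64 over the 3 arrays that measured both and NR4A2 was the higher on 2 of them. IER2 was above IER5 on all 3 arrays, by 0.63 ± 0.31, and IER5 above IER3 on all 4, by 0.16 ± 0.10. The difference of 0.04 ± 0.10 between IER3 and SRF was within its SD. Over 4 arrays the exact two-sided permutation test that flips the signs of a gene's ratios cannot go below p = 0.125, the value that EGR1, NR4A1 and NR4A2 had. The methods of the study state that samples and controls were collected in quadruplicate. Neither they nor the labels say which sample went on which array or whether the samples came from separate cultures. The permutation p-values measure the spread over all arrays of a gene. The limma p-values, with the dye term, rest on the spread between arrays of the same orientation. Either spread may be technical.

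The probes whose log2 ratios over the 4 arrays lay nearest to those of EGR1, by the root mean square difference among 7990 probes, were those of TUBE1 (0.256), IL20RB (0.265) and TPST1 (0.314). Their log2 ratios were 1.54 for TUBE1, which encodes epsilon-tubulin, 1.54 for IL20RB, a cytokine receptor subunit, and 1.41 for TPST1, a tyrosylprotein sulfotransferase. In control cells TPST1 was well above background on 2 arrays.

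Most other immediate early genes that could be tested were higher as well. Of 34 on the array 25 were tested, of which 16 were higher, 2 were lower and 7 did not pass, with a median log2 ratio of 0.44 (limma adjusted p under 0.05). GEM and DUSP2, counted among the higher genes, were well above background in 2 treated channels each but in 0 control channels. They were thus tested only through their signal in treated cells. Over all tested probes 24.3% were higher and 13% lower. The count of calls was 18, but 4 without the dye term, 8 without array 4 and 12 without array 3. Without the dye term limma gave 11 higher and 0 lower at an unadjusted p under 0.05. The list includes genes that the study named from these same arrays (ATF3, DUSP1, FOS, FOSB and JUN), so its direction is not independent evidence. For ATF3 and DUSP1 the study also reported induction in K562 cells by QRT-PCR. DUSP1, a phosphatase that inactivates MAP kinases, had the highest log2 ratio, 2.22 ± 0.50 (SD, n = 4 arrays), followed by the stress-induced factor ATF3 with 2.10 ± 0.39. JUN, a subunit of AP-1, reached 1.77 ± 0.43 and the small MAF protein MAFF 1.51 ± 0.40, so that EGR1 lay between JUN and MAFF. Of the 16 genes that rose, 11 were above 0 on all 4 arrays. The genes that fell, named after their values were seen, were the antiproliferative gene BTG2 (-0.29) and the kinase gene SGK1 (-0.29), and each was above 0 on 1 array. Among relatives of the 10 genes, IER5L had a log2 ratio of -0.01 (limma adjusted p = 0.958) and EGR4 was not well above background in any channel.

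**Figure D4:**
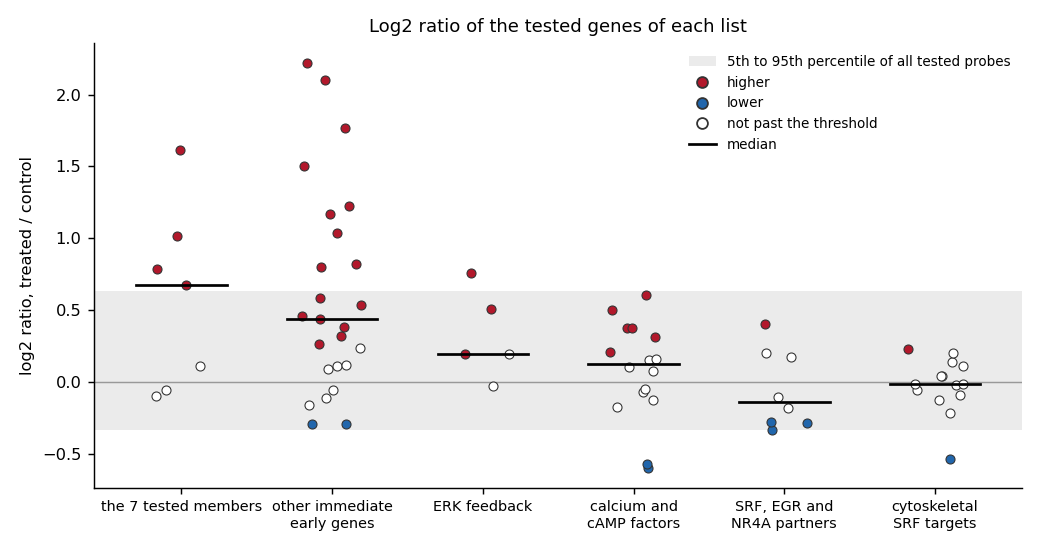
Log2 ratio of treated to control cells (vertical axis) of the tested genes of each list, with red for higher, blue for lower and white for not past the threshold, a bar at each median and a gray band from the 5th to the 95th percentile of all tested probes. The medians are 0.67 for the 7 tested genes and 0.44 for other immediate early genes, against -0.01 for cytoskeletal SRF targets.

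Genes that act with SRF, EGR and NR4A proteins were found in both directions. Of 11 on the array 8 were tested, with 1 higher, 3 lower and 4 not past (24.3% higher and 13% lower over all tested probes), and a median log2 ratio of -0.14. MRTFA, an actin-regulated partner of SRF listed in the files as MKL1, was at 0.40 ± 0.20 on the log2 scale (SD, n = 4 arrays; limma adjusted p = 0.0077). ELK1, the ETS partner of SRF, was at -0.33 ± 0.25 (SD, n = 4 arrays; limma adjusted p = 0.0049) and was below 0 on all 4 arrays. The other genes that fell, named after their values were seen, were NAB2, a corepressor of EGR proteins, at -0.28, and RXRA, a dimer partner of NR4A1 and NR4A2, at -0.29, and each was above 0 on 1 array. Of 14 cytoskeletal genes known as SRF targets, all tested, 1 was higher, 1 was lower and 12 did not pass, with a median of -0.01. The count of calls over both lists was 6, but 2 without array 3, 1 without array 4 and 0 without the dye term, where limma gave 1 higher and 1 lower at an unadjusted p under 0.05. With the dye term, the cytoskeletal gene called higher was TPM1, a tropomyosin, at 0.23 ± 0.24. The cytoskeletal gene called lower was CNN1, a calponin, at -0.53 ± 0.24 (SD, n = 4 arrays).

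Feedback inhibitors of ERK, the kinase that activates ETS partners of SRF, included 5 tested genes of 7 on the array, of which 3 were higher and 0 lower, with a median log2 ratio of 0.19, where 24.3% of all tested probes were higher and 13% lower. The count of calls was 1 without array 3 or without array 4, and 0 without the dye term, where limma gave 2 higher at an unadjusted p under 0.05. DUSP5, a nuclear phosphatase of ERK, reached 0.76 ± 0.20 and SPRY4, a Sprouty protein, 0.51 ± 0.18 (SD, n = 4 arrays), both above 0 on all 4 arrays. However, DUSP5 was well above background in each channel on only 2 arrays. SPRY2 was the other gene that rose (0.19), with values below 0 on arrays 1 and 2. With the dye term limma gave 4 higher and 0 lower at an unadjusted p under 0.05.

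Factors that relay calcium and cAMP signals to immediate early promoters numbered 23 on the array, of which 16 were tested, with 6 higher, 2 lower and 8 not past, and a median of 0.13. Over all tested probes 24.3% were higher and 13% lower, so the lower calls were near the share of all probes. The count of calls was 8, but 5 without array 3, 4 without array 4 and 0 without the dye term, where limma gave 3 higher and 1 lower at an unadjusted p under 0.05. MEF2A, a factor that binds the NR4A1 promoter in other cells, reached 0.61 ± 0.24 (SD, n = 4 arrays) and was well above background in each channel on 2 arrays. The coactivators EP300 (0.50 ± 0.46) and CRTC2 (0.38 ± 0.08) were also higher. HDAC7, a class IIa deacetylase that represses MEF2 factors, fell by 0.57 on the log2 scale, with an SD of 0.39, and its value on array 2 was -0.01. HDAC4, another deacetylase of the list, was instead called higher at 0.31 (limma adjusted p = 0.035), with -0.34 on array 1. The remaining genes called higher were RCAN1 (0.38) and CAMK2G (0.21), each below 0 on arrays 1 and 2. These 3 genes were named after their values were seen. MEF2C, named after its values were seen, was at -0.59 ± 0.71, between -1.32 on array 2 and 0.06 on array 3. All these comparisons come from the same 4 arrays and the same cells as those of the 10 genes.

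The dye term and the normalization changed calls among the 7 tested genes. With median centring IER5 passed the threshold, as given above. Without the dye term EGR1 alone was past the threshold (limma adjusted p = 0.0273), while NR4A1, NR4A2 and IER2 had limma adjusted p-values of 0.120, 0.221 and 0.161 at log2 ratios of 1.02, 0.79 and 0.63. At an unadjusted p under 0.05, limma without the dye term still gave 4 higher and 0 lower. The calls of NR4A1, NR4A2 and IER2 were kept in all other settings in which these genes could be tested.

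**Figure D5:**
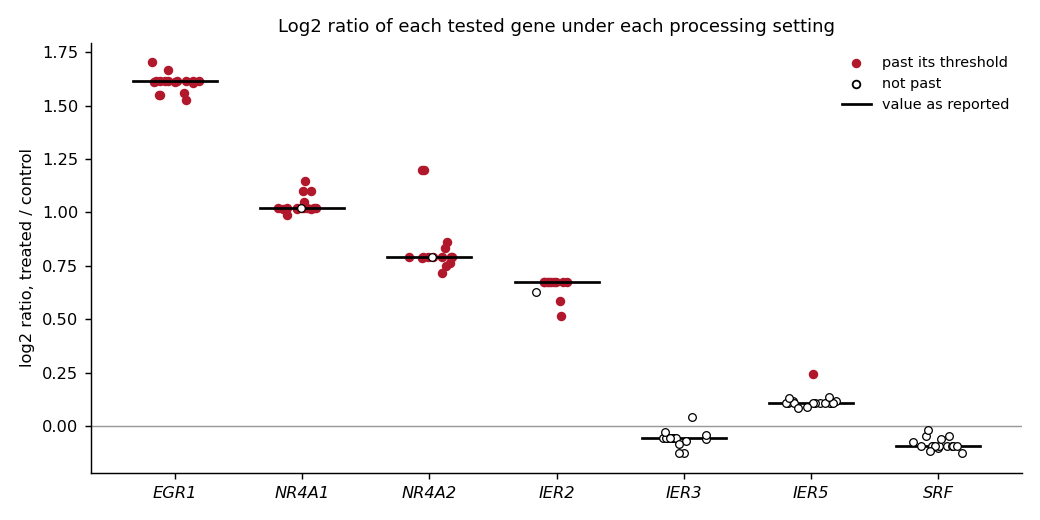
Log2 ratio of treated to control cells (vertical axis) of the 7 tested genes under each processing setting, with filled points past that setting's threshold, open points not past it and a bar at the value as reported. EGR1 stays between 1.53 and 1.70, NR4A2 reaches 1.20 with the processed signals, and IER3 and SRF stay near 0.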

How the data were processed

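Gene expression was measured in AC-1041-treated and control K562 cells on 4 two-colour arrays. The authors deposited, per the file headers, the intensity of every spot and of its local background in each channel, as Agilent Feature Extraction wrote it, with no normalization between channels. The deposited files also hold processed intensities and a log10 ratio made from them, and the authors' series table holds log10 ratios of treated to control. There was no read depth, so the number of arrays limits the precision.

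From the intensities, background was corrected with normexp (offset 50), ratios were normalized by loess (span 0.3) and log2 ratios were computed. Marked spots (1.57% to 8.08% per array) were left out, and 2 joined records of array 1 were split. Probes were tested if 2 or more arrays had a channel well above background and if the unmarked spots allowed a dye term. The limma 3.58.1 fit in R 4.3.3 had a treatment and a dye term, with Benjamini-Hochberg adjustment over all 8852 tested probes. Normalized channel intensities used Aquantile after loess.

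RefSeq (GRCh38.p14) named 12002 of 14297 probes by accession, including 9 of the 10 genes, and the others kept the file's name. Probe positions are those of the files (hg18). The members and lists were chosen with earlier results of these data known. Of each list, the 4 largest changes past the threshold with 1 direction on all arrays were named, and the 3 probes nearest to EGR1. Lists held other immediate early genes, relatives of the members, partners of SRF, EGR and NR4A proteins, cytoskeletal SRF targets, ERK feedback inhibitors, calcium and cAMP factors, and cell type markers, of which 1 is not reported here.

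Alternatives were no background subtraction, processed signals, the series table, median centring, other filters on dim probes, marked spots kept, no dye term, an intensity-dependent prior, a threshold of 0.01, averaging of arrays in pairs, and leaving out each array in turn. The fit was tested on simulated ratios for this comparison over 8852 probes, where it recovered 71% of 100 changes of 1 and 45% of 100 changes of 0.5 on the log2 scale. Of the simulated calls 2.52% were false. Far fewer probes were changed there than the 3306 called in the data. The adjustment was therefore stricter in the simulation, and these shares may not carry over. All arrays lay on 1 slide with 1 scan time.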

Additional observations from a re-analysis of the deposited data

How the results depend on the processing

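The count of genes called among the 7 tested ones was 4. It was 1 without the dye term, 5 with median centring, 6 of 10 without the filter on dim probes, and 3 to 4 with each array left out. IER2 could not be tested without array 2, 3 or 4 or with arrays averaged as pairs, and NR4A2 not with both channels required above background. IER3 changed sign with median centring (0.042), whose cause was not tested. Without the dye term, 4 other immediate early genes were called in place of 18, 0 SRF partners and targets in place of 6, 0 ERK feedback genes in place of 3, 0 calcium and cAMP genes in place of 8, and 56 of all probes in place of 3306, since the difference between orientations then counts as error. At an unadjusted p under 0.05 limma still gave, without the dye term, 1 higher and 1 lower SRF gene, 2 higher ERK feedback genes, and 3 higher and 1 lower calcium and cAMP genes. At an adjusted p under 0.01, 1822 of all probes and 3 SRF partners and targets were called. With both channels above background on all arrays, which tests fewer genes, 11 other immediate early genes, 1 ERK feedback gene and 4 calcium and cAMP genes were called. With 1 array left out, the counts ran from 8 to 21 for other immediate early genes, 1 to 9 for SRF partners and targets, 1 to 3 for ERK feedback genes, 4 to 9 for calcium and cAMP genes and 1124 to 4054 for all probes. The lowest counts of all probes came without array 4 (1124) and without array 3 (1491), which also left fewer probes tested. Higher calls made up 79.9% of all calls with median centring and 65.2% with loess. Slide and scan date could not be fitted as a block, since all arrays shared them, and each of the 10 genes had 1 probe, so no other probe could be tried. Treated and control RNA were compared within each array in every fit. No paired analysis was possible because the replicate numbers belong to 1 set of arrays, so a block for the replicate number could not be added to these ratios. EGR2, EGR3 and NR4A3 were limited by their signal over background.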
